A study of Mus musculus with 12 samples.

Results

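The keratins of the basal and the differentiating layers of the epidermis between hair follicles were followed in mouse back skin through 7 genes: Krt5, Krt14 and Krt15 of the basal layer, and Krt1, Krt10, Krt2 and Krt77 of the suprabasal layers. They were taken by gene symbol from the 18505 genes of the deposited expression table and all 7 were found among its 54 rows whose symbol begins with Krt and a digit. The samples were back skin of young male wild-type BALB/c mice on day 10, with 4 samples in each of 3 groups. The back hair of the mice of all 3 groups had been shaved. Control skin was coated with petroleum jelly. Skin of the IMQ + NS group had received imiquimod (IMQ) cream, an agonist of a Toll-like receptor that causes psoriasis-like lesions, and was then covered with saline (NS) under gauze and film. Skin of the IMQ + BZLF group had received the same cream and was then covered with the Banzhilian formula (BZLF), a herbal preparation, in place of saline. The dose of BZLF in the sequenced samples was not given in the sources used here. Controls received petroleum jelly in place of the cream and were not covered with saline, gauze or film. IMQ, the base of its cream, the saline cover, the gauze and the film therefore cannot be told apart between the IMQ + NS and control groups. Imiquimod-treated mouse skin is an acute model of psoriasis, and whole skin, not isolated epidermis, was sequenced.

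Keratins are the proteins of the intermediate filaments of epithelial cells, and each filament is built from pairs of 1 acidic type I and 1 basic type II keratin. Basal keratinocytes, which divide and are anchored to the basement membrane, make Krt5 (type II) with Krt14 (type I). Krt15 is a further type I keratin of the basal layer that is also high in the stem cells of the hair follicle bulge. Keratinocytes that leave the basal layer switch to Krt1 (type II) and Krt10 (type I), Krt2 is a type II keratin of the upper suprabasal layers that in the mouse is found mainly in the ear, footpad and tail, and Krt77 is a type II suprabasal keratin closely related to Krt1. In psoriatic epidermis the wound and hyperproliferation keratins Krt6a, Krt6b, Krt16 and Krt17 are the classical additions to this programme.

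In the GRCm38 (mm10) assembly all 7 genes lie on the minus strand. The type II genes were found in 1 stretch of chromosome 15, with Krt5 at chr15:101707070-101712898, Krt2 at chr15:101810689-101818169, Krt1 at chr15:101845426-101850794 and Krt77 at chr15:101858731-101869705. Krt1 and Krt77 were direct neighbours on this map among the 7 genes, with 7.94 kb between them, against 27.3 kb between Krt2 and Krt1 and 97.8 kb between Krt5 and Krt2. The type I genes lay on chromosome 11, with Krt10 at chr11:99385254-99389364, Krt15 at chr11:100131758-100135928 and Krt14 at chr11:100203162-100207548. The principal annotated transcript had 9 exons for each type II gene and 8 for each type I gene. FPKM covers the whole transcript, so single exons are not separated in the values below.

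The 150 bases before the RefSeq start of 3 of these genes are shown because their levels took 3 different courses in the skin samples: a basal gene that rose with IMQ, the suprabasal gene for which no change passed the test, and the suprabasal gene that fell the most of the 7. They were read on the strand of the gene from GRCm38.p6 at chr15:101712906-101713055 for Krt5, chr11:99389365-99389514 for Krt10 and chr15:101869706-101869855 for Krt77, and capitals mark matches to TATAAA on the strand of the gene and to TTNCNNAA, the letters searched for C/EBP, on either strand.
Krt5: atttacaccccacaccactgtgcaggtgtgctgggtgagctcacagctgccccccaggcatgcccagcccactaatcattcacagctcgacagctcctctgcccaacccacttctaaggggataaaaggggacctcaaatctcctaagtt
Krt10: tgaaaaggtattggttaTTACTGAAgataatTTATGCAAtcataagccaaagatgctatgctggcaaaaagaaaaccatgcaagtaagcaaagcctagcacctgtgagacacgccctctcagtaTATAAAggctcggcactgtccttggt
Krt77: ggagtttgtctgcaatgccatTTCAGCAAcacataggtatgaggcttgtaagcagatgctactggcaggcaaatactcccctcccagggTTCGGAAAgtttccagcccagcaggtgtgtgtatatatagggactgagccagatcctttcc
RefSeq gave windows from 250 bases before to 50 bases after the start for 5 of the 7 genes (not for Krt1 and Krt15). The start given for Krt14 lies inside the annotated gene, so its window was left out here. Of the windows of Krt5, Krt10, Krt2 and Krt77, only that of Krt10 held TATAAA, 26 bases before the start, against 13.6% of 32851 promoter windows. TTNCNNAA was found in Krt10 at 133 and 119 bases before the start, in Krt77 at 129 and 61 bases, and also in Krt2 but not in Krt5, against 40.7% of all windows. The AP-1 letters TGANTCA were in 0 of the 4 windows, against 7.81% of all windows. These matches describe the letters and were not linked to the expression values.

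The files gave 1 FPKM value (fragments scaled to transcript length and to the fragments of the library) per gene and sample, a measure corrected for transcript length, so that levels of different keratins can be set side by side. The summed FPKM of a sample ranged from 444660 to 506622, and the read depth behind each value is unknown. All 7 keratins and the hyperproliferation keratins Krt6a, Krt6b, Krt16 and Krt17, the markers of keratinocytes, were above 0 in all 12 samples. The sources do not give the animal behind each sample, and p-values below measure the spread between the 4 samples of a group. The sample of control replicate 2 stood apart: its median absolute log2 difference from the other controls was 0.324 to 0.371, against 0.103 to 0.167 among those 3, and its summed FPKM of 12 proliferation genes was 262, against 26.5 to 44.7. Transcripts of 7 seminal vesicle genes summed to 39.6 FPKM in control replicate 2 and 39.5 FPKM in IMQ + BZLF replicate 2, and to at most 0.0441 FPKM in the other 10 samples. Calls of the 7 keratins that changed without either library are given beside the result.

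In control skin the suprabasal keratin Krt10 had the highest mean of the 7, at 1012 ± 369 FPKM (SD, n = 4 here and below), followed by Krt5, Krt77, Krt14, Krt15, Krt1 and Krt2. The ranges of neighbours in this order overlapped, except that Krt15 lay above Krt1 in every sample and Krt1 above Krt2. In the IMQ + NS group the order was Krt14, Krt5, Krt10, Krt1, Krt15, Krt77 and Krt2, where only the steps from Krt1 to Krt15 and from Krt15 to Krt77 separated all samples. In the IMQ + BZLF group Krt5 came first, then Krt10, Krt14, Krt1, Krt15, Krt77 and Krt2, and only Krt15 and Krt77, and Krt77 and Krt2, did not overlap. Among all 18505 genes ranked by group mean, Krt14 stood at place 139 in control skin, 17 after IMQ + NS and 118 after IMQ + BZLF. Krt77 moved the other way, from place 117 in control skin to 9654 after IMQ + NS and 2058 after IMQ + BZLF. Krt10 stayed between place 66 and place 97, whereas Krt2 was a weakly expressed gene throughout, between place 9858 and place 12200. Krt5, Krt14, Krt10 and Krt1, the 2 classical pairs, stood within the first 287 places in every group.

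**Figure D1:**
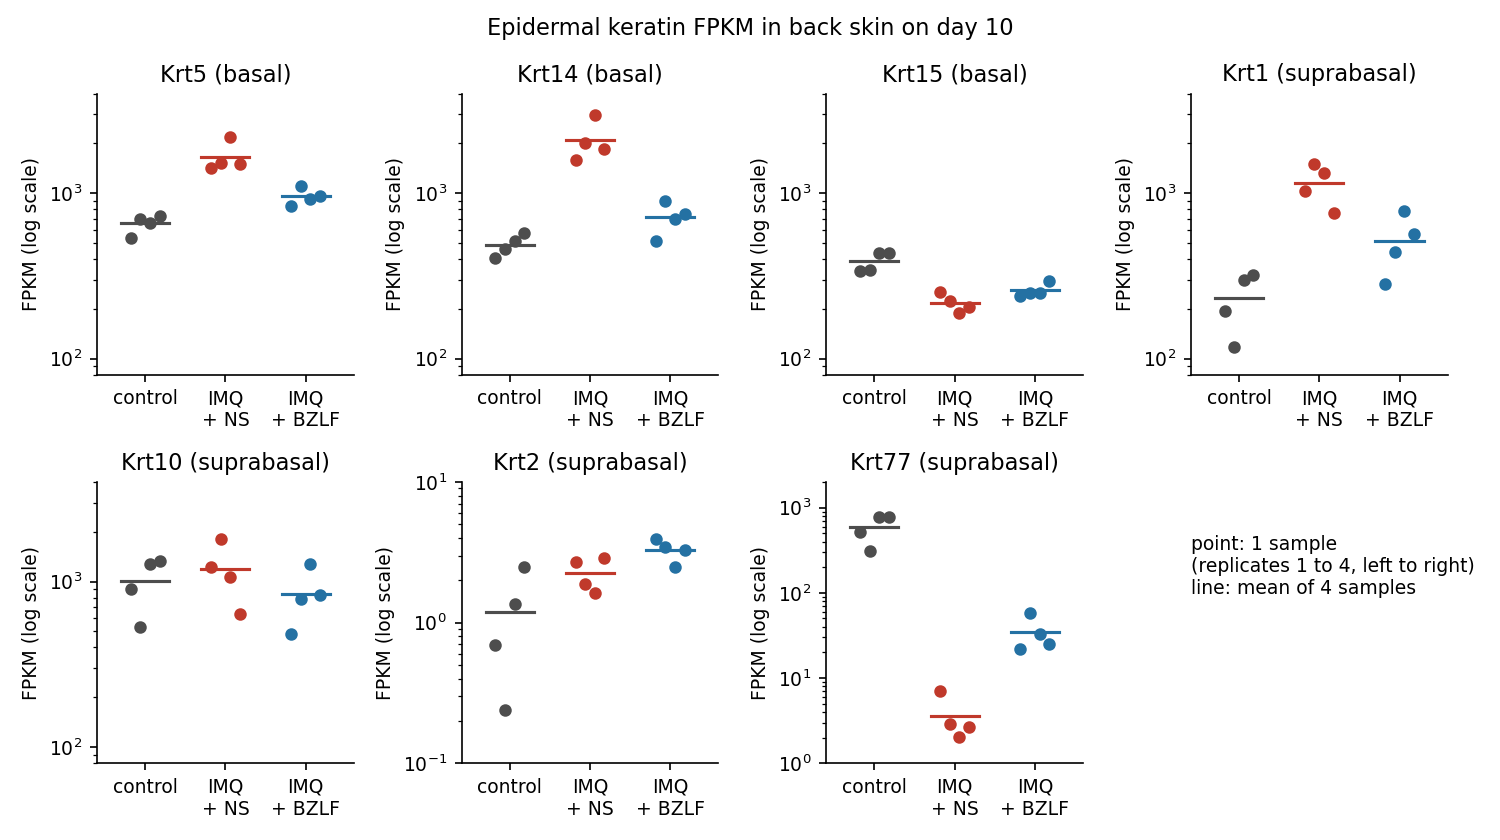
FPKM (log scale) of the 7 keratins in each sample, by group; points are samples and lines are means of 4. Krt5 and Krt14 were high in IMQ + NS skin (means 1652 and 2100.0 FPKM), Krt77 fell from 598 FPKM in control to 3.63 in IMQ + NS skin, and the Krt10 values of the 3 groups overlapped.

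The comparison of the IMQ + NS and control groups asked what the psoriasis-like lesion changes. Krt5, Krt14 and Krt1 were upregulated, Krt77 was downregulated by far more than any of them rose, and Krt15 fell by less than 2-fold, while Krt10 and Krt2 did not pass the test. In whole skin, fewer keratinocytes of a layer and less RNA per keratinocyte cannot be told apart for any of these genes. A differentially expressed gene (DEG) had to have a Benjamini-Hochberg adjusted p below 0.05 in limma, over the 15288 genes tested on log2(FPKM + 0.1), together with a change of more than 1 log2 unit. By this rule 3 of the 7 keratins were higher in IMQ + NS skin, against 11.4% of all genes tested, and 1 was lower, against 11%. By adjusted p alone, 3 were higher (29% of all genes) and 2 lower (27.1%). The median log2 fold change of the 7 was 1.20, against 0.053 over all genes tested.

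Among the basal keratins, Krt14 measured 405, 459.9, 510.4 and 571 FPKM in control replicates 1 to 4 and 1589.9, 2000.5, 2958 and 1852 FPKM in IMQ + NS replicates 1 to 4. The lowest lesional sample lay far above the highest control, and the mean rose 4.32-fold (log2 fold change 2.08, SE 0.19, limma adjusted p = 4.81e-05). Its partner Krt5 measured 539, 697, 663 and 728 FPKM in control and 1410.5, 1514, 2186 and 1499 FPKM in IMQ + NS skin. The groups again did not overlap, and the rise was 2.52-fold (log2 1.32, SE 0.15, limma adjusted p = 0.000178). Krt15 went the other way, from 338, 342, 433 and 437 FPKM in control to 253, 224, 188 and 204 FPKM in IMQ + NS skin. All 4 lesional samples lay below all 4 controls, but the log2 fold change of -0.83 (SE 0.13, limma adjusted p = 0.000679) was within the 2-fold limit, so Krt15 was not a DEG. For each of these 3 genes an exact two-sided permutation test of the group means gave p = 0.0286 with n = 4 a group, the smallest value that its 70 assignments allow. The reference transcripts of Krt14 and Krt5 share stretches with hyperproliferation keratins. Of the 75-base windows of the principal transcript, 5.91% of those of Krt14 occur unchanged in Krt16, and 5.18% of those of Krt5 occur in Krt6a, Krt6b or their neighbours Gm5478 and Gm5414, whereas 0% were shared for the other 5 keratins. How the authors' counting split such reads was not tested, and the summed FPKM of Krt6a, Krt6b, Krt16 and Krt17 moved with Krt5 and Krt14, at 189.7 to 616 in control and 2344 to 4207 in IMQ + NS samples.

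Among the suprabasal keratins, Krt77 measured 522, 310.3, 772 and 787 FPKM in control and 6.97, 2.85, 2.0 and 2.68 FPKM in IMQ + NS skin. All 4 lesional samples lay far below the lowest control, and the mean was 165-fold lower (log2 fold change -7.40, SE 0.41, limma adjusted p = 3.21e-06). Krt1, its neighbour on chromosome 15, measured 195, 117, 297 and 319.6 FPKM in control and 1032, 1497, 1326 and 754 FPKM in IMQ + NS skin. Every lesional sample was higher than every control, with a 4.96-fold rise of the mean (log2 2.37, SE 0.33, limma adjusted p = 0.000480). Both separations gave p = 0.0286 in the exact permutation test (n = 4 a group). Krt10, the type I partner of Krt1, measured 905, 535, 1279.5 and 1327 FPKM in control and 1227, 1812, 1066 and 633 FPKM in IMQ + NS skin. The 2 groups overlapped, the 95% interval of the log2 fold change (not adjusted for the number of genes, here and below) ran from -0.62 to 1.05, and the limma adjusted p was 0.634. The sign of the Krt10 estimate, 0.22, turned to -0.060 without control replicate 2. Krt2 measured 0.693, 0.237, 1.37 and 2.48 FPKM in control and 2.70, 1.89, 1.62 and 2.87 FPKM in IMQ + NS skin, far below Krt10 in every sample. Its groups overlapped and the log2 difference of 1.20 (95% interval -0.059 to 2.47) had a limma adjusted p of 0.0937. Without control replicate 4, which had the highest Krt2 of the controls, it was 1.66 with an adjusted p of 0.0213, and without control replicate 2, which had the lowest, it was 0.68 with an adjusted p of 0.150. Without control replicate 2 the same 3 keratins were DEGs upwards and Krt77 downwards, with log2 fold changes of 1.35 for Krt5, 2.06 for Krt14, 2.08 for Krt1 and -7.68 for Krt77.

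The comparison of the IMQ + BZLF and IMQ + NS groups asked what BZLF changes in the lesion. Krt14 was downregulated and Krt77 upregulated in BZLF-treated lesions, Krt5 fell by less than 2-fold, and Krt15, Krt1, Krt10 and Krt2 did not pass the test. Of the 7 keratins 1 was a DEG upwards, against 0.321% of all genes tested, and 1 downwards, against 2.2%. By adjusted p alone, 1 was higher (1.28% of all genes) and 2 were lower (5.17%), and by unadjusted p 3 were higher (7.96% of all genes) and 3 lower (14.8%). The 49 genes called higher over the whole table became 19 and 78 when IMQ + BZLF replicate 2 and replicate 1, respectively, were left out, and 25 and 29 when IMQ + NS replicate 3 and replicate 4 were. The median log2 fold change of the 7 was -0.48, against -0.023 over all genes. The 4 IMQ + NS samples are shared with the comparison above, so that the fold changes of the 2 comparisons are not independent.

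Krt14 measured 516, 896, 697 and 748 FPKM in IMQ + BZLF replicates 1 to 4, with a mean of 714 ± 157 against 2100.0 ± 597 in IMQ + NS skin. No sample overlapped, and the log2 fold change was -1.54 (SE 0.22, limma adjusted p = 0.00571). Krt5 measured 836, 1100.5, 926 and 956 FPKM, again below every IMQ + NS sample (log2 -0.78, SE 0.15, limma adjusted p = 0.0183), with an adjusted p of 0.0508 when IMQ + BZLF replicate 3 was left out. Krt15 measured 240.4, 249.96, 251 and 293 FPKM, which overlapped with IMQ + NS skin (log2 0.26, 95% interval 0.027 to 0.48, limma adjusted p = 0.176). Of the 3 basal keratins, then, both members of the Krt5 and Krt14 pair were lower with BZLF and no change of Krt15 passed the test.

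Krt77 measured 21.7, 58.3, 32.5 and 25.1 FPKM in IMQ + BZLF skin. Each of these values exceeded all 4 IMQ + NS values, and the mean was 9.48-fold higher (log2 3.27, SE 0.40, limma adjusted p = 0.00354). Without IMQ + BZLF replicate 2, the highest sample and the one that holds seminal vesicle transcripts, the log2 fold change was 2.98 with an adjusted p of 0.0129. Krt1 measured 283, 443, 776 and 565 FPKM. In 3 of 4 IMQ + BZLF samples it lay below every IMQ + NS sample, and the log2 fold change of -1.20 (95% interval -1.91 to -0.50) narrowly missed the threshold (limma adjusted p = 0.0534, exact permutation p = 0.0571, n = 4 a group). It passed without IMQ + BZLF replicate 3, the sample with the highest Krt1 of its group, at a log2 fold change of -1.43 and an adjusted p of 0.0360. Krt10 measured 483, 790.2, 1271 and 826 FPKM and overlapped widely with IMQ + NS skin (log2 -0.48, 95% interval -1.27 to 0.31, limma adjusted p = 0.462). Krt2 measured 3.93, 3.45, 2.47 and 3.30 FPKM, likewise overlapping (log2 0.53, 95% interval 0.075 to 0.99, limma adjusted p = 0.159).

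IMQ + BZLF skin was also set against control skin, a comparison added here, to see how far each keratin stood from untreated skin. Krt77 remained far below control, Krt1 and Krt2 were higher, Krt5 and Krt14 were higher and Krt15 lower by less than 2-fold, and Krt10 did not pass the test. As DEGs, 2 of the 7 were higher, against 9.65% of all genes tested, and 1 was lower, against 10.1%. By adjusted p alone, 4 were higher (23.8% of all genes) and 2 lower (29.2%), and the median log2 fold change was 0.54 against -0.018 over all genes. This comparison shares its samples with the other 2.

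The Krt77 values of 21.7 to 58.3 FPKM with BZLF all lay below the control range of 310.3 to 787 FPKM, and the mean was 17.4-fold lower (log2 -4.13, SE 0.37, limma adjusted p = 7.85e-05). Krt5 lay above every control sample (log2 0.54, SE 0.12, limma adjusted p = 0.00544). Krt14 did so in 3 of 4 samples (log2 0.54, SE 0.17, limma adjusted p = 0.0281), with adjusted p from 0.0510 to 0.0786 when IMQ + BZLF replicate 2, 3 or 4 or control replicate 1 or 3 was left out. Krt15 lay below every control (log2 -0.58, SE 0.11, limma adjusted p = 0.00327), as in IMQ + NS skin. With quantile normalization neither Krt5 (log2 0.22, adjusted p = 0.225) nor Krt14 (log2 0.21, adjusted p = 0.372) passed, and with samples rescaled to equal sums Krt14 did not (log2 0.43, adjusted p = 0.0672). Krt1 and Krt2 were higher than all controls in 3 of 4 samples each, with log2 fold changes of 1.17 (SE 0.38, limma adjusted p = 0.0293) and 1.74 (SE 0.54, limma adjusted p = 0.0251). Both calls depended on single samples. Without control replicate 2, Krt1 came to 0.87 (adjusted p = 0.0420) and was no longer a DEG while Krt2 came to 1.21 (adjusted p = 0.0164), and without IMQ + BZLF replicate 2, IMQ + BZLF replicate 4 or control replicate 1 neither was a DEG (adjusted p from 0.0532 to 0.0718). Leaving out IMQ + BZLF replicate 1 ended the call of Krt2 alone (adjusted p = 0.0648) and leaving out IMQ + BZLF replicate 3 that of Krt1 alone (log2 0.94, adjusted p = 0.0758). Krt2 remained rare, with 3.29 ± 0.607 FPKM in IMQ + BZLF skin against 1.19 ± 0.975 in control. For Krt10 the log2 difference was -0.26 (95% interval -1.05 to 0.54, limma adjusted p = 0.553).

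**Figure D2:**
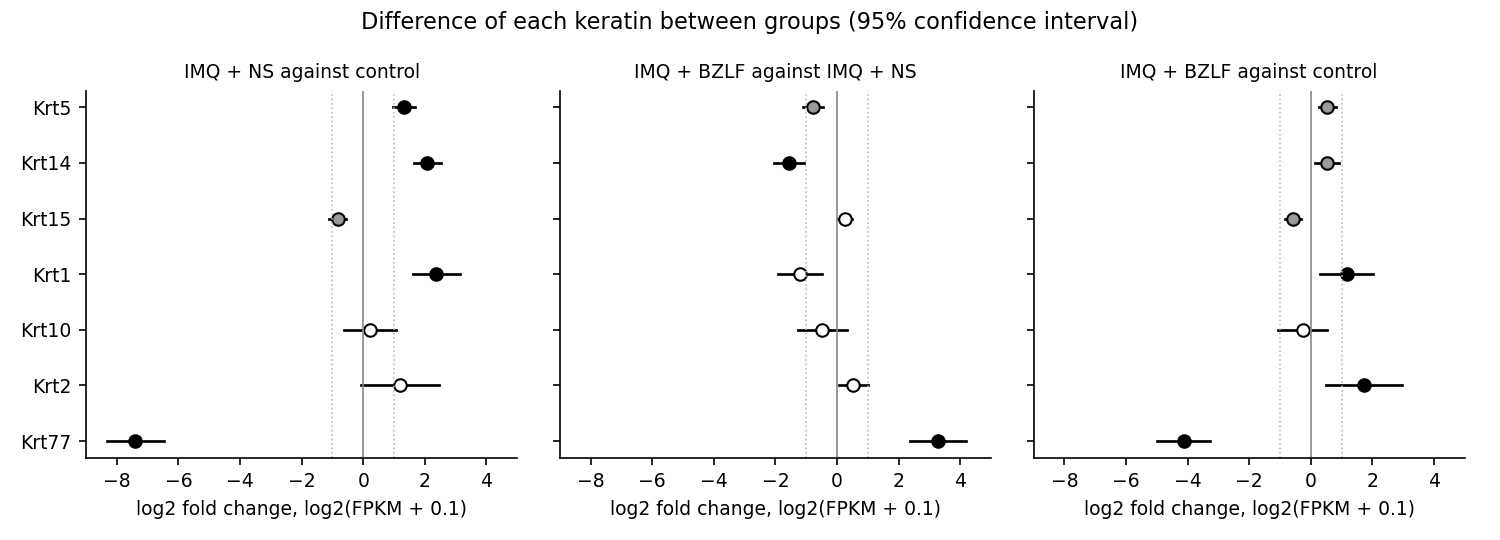
Log2 fold change of each keratin on the log2(FPKM + 0.1) scale in the 3 comparisons, with 95% confidence intervals from limma; black points are DEGs, grey points passed the adjusted p but not the 2-fold limit (dotted lines), and open points did not pass. Krt77 lay at -7.40, 3.27 and -4.13, and the Krt10 interval held 0 in all 3 panels.

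Because keratins work as pairs, the FPKM of each type II gene was divided by that of a type I gene of its layer within each sample. These ratios are descriptions and were not tested. Krt5 exceeded Krt14 in every control sample (ratio 1.28 to 1.52) and in every IMQ + BZLF sample (1.23 to 1.62), and was below Krt14 in every IMQ + NS sample (0.739 to 0.887). The control and IMQ + BZLF ranges overlapped, and neither overlapped with IMQ + NS. The ratio of Krt1 to Krt10 was 0.215 to 0.241 in control skin, 0.826 to 1.24 after IMQ + NS and 0.560 to 0.684 after IMQ + BZLF. Here the 3 groups did not overlap, although the Krt10 values themselves did. Krt77 stood to Krt10 at 0.577 to 0.603 in control skin, a narrow range although Krt77 itself ran from 310.3 to 787 FPKM. It fell to 0.00158 to 0.00568 in IMQ + NS and lay at 0.0256 to 0.0737 in IMQ + BZLF samples. The ratio of Krt2 to Krt10 was 0.000443 to 0.00187 in control, 0.00104 to 0.00454 in IMQ + NS and 0.00194 to 0.00813 in IMQ + BZLF skin, and its groups overlapped.

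In the controls, replicate 2 had the lowest and replicate 4 the highest value of Krt1, Krt10, Krt2 and Krt77 alike. In ratios chosen after the values were seen, Krt77 stood to Krt1 at 2.46 to 2.68 in the 4 controls, including the deviating replicate 2. Krt77 made up 71.0 to 72.8 percent of the summed FPKM of the 3 suprabasal type II keratins in control skin, 0.151 to 0.669 percent after IMQ + NS and 4.01 to 11.6 percent after IMQ + BZLF. The main suprabasal type II transcript was therefore Krt77 in every control sample and Krt1 in every sample that had received IMQ. The sum of Krt1, Krt2 and Krt77 over Krt10 was 0.793 to 0.837 in control skin, 0.83 to 1.25 after IMQ + NS and 0.638 to 0.718 after IMQ + BZLF. Within the basal layer genes, the ratio of Krt15 to Krt14 was 0.743 to 0.848 in control skin, 0.0634 to 0.159 after IMQ + NS and 0.279 to 0.466 after IMQ + BZLF, without overlap between groups.

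**Figure D3:**
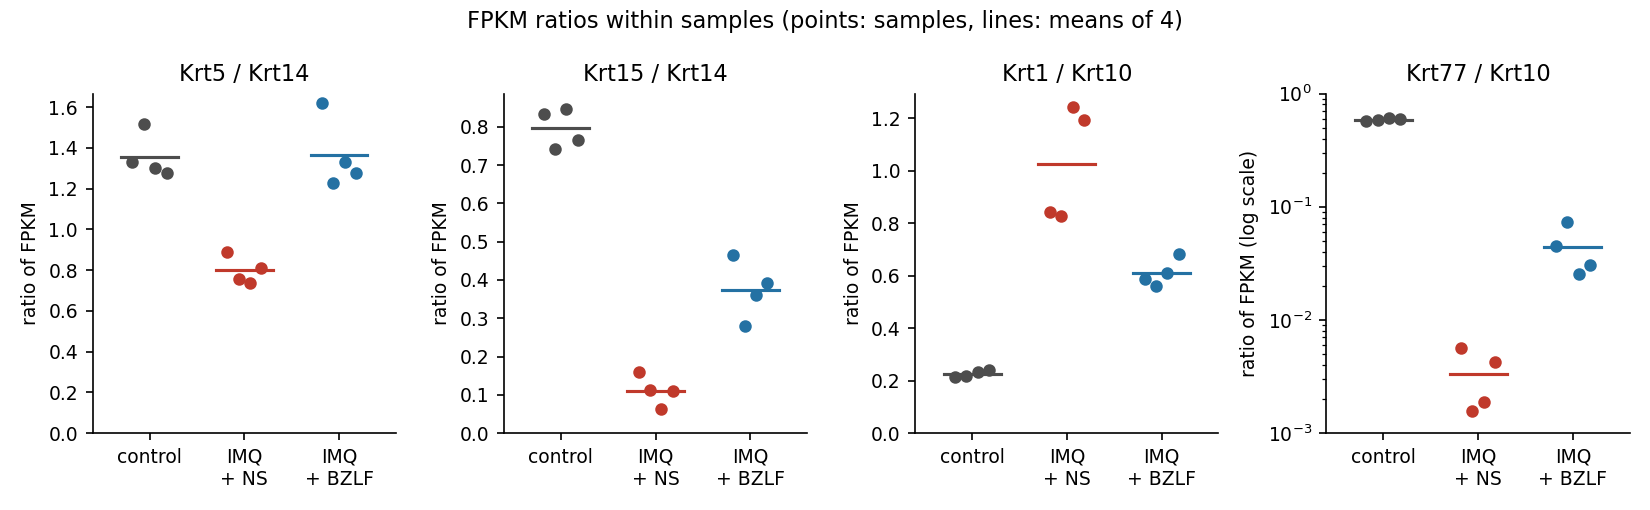
Ratios of Krt5 to Krt14, Krt15 to Krt14, Krt1 to Krt10 and Krt77 to Krt10 by FPKM within each sample (points) with the mean of 4 (lines); the Krt77 to Krt10 panel has a log axis. Krt5 to Krt14 lay below 1 in the 4 IMQ + NS samples and above 1 in the 8 others, while the other 3 plotted ratios did not overlap between any 2 groups.

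The 7 keratins together summed to 3373 ± 822 FPKM in control, 6313 ± 1296 FPKM with IMQ + NS and 3325 ± 668 FPKM with IMQ + BZLF. Each IMQ + NS sample lay above all others, and the control range of 2462 to 4171 held 3 of the 4 IMQ + BZLF samples. As a mean share of this sum, Krt14 took 14.8% in control skin, 33.2% after IMQ + NS and 21.6% after IMQ + BZLF. The share of Krt1 was 4.76% to 7.66% in control skin, 15.2% to 21.2% after IMQ + NS and 11.9% to 19.6% after IMQ + BZLF. In the same order that of Krt77 was 12.6% to 19.5%, 0.0259% to 0.126% and 0.733% to 1.65%. The 4 suprabasal keratins together took 39.1 to 59.4 percent in control skin, 28.2 to 47.0 percent after IMQ + NS and 33.2 to 52.6 percent after IMQ + BZLF. Control replicate 2 was the lowest control, at 39.1 percent against 55.9 to 59.4 percent in the other 3, and with it the groups overlapped. Without it the controls lay above all 8 IMQ-treated samples.

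**Figure D4:**
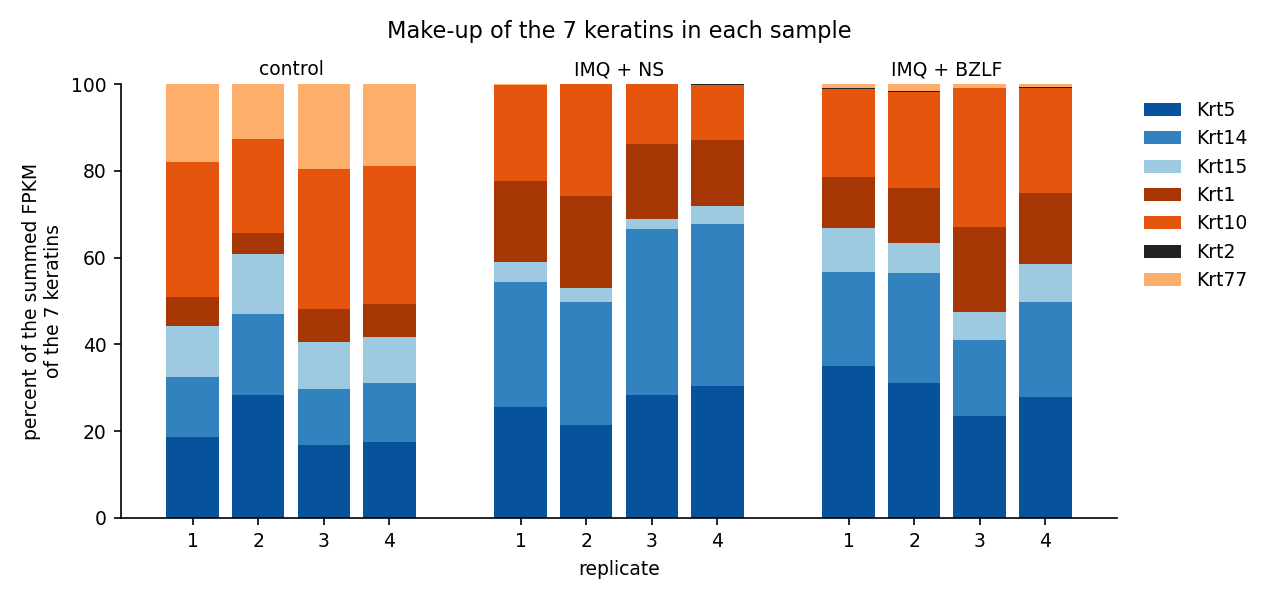
Percent of the summed FPKM of the 7 keratins taken by each gene in each sample, with basal keratins in blue and suprabasal keratins in orange shades (Krt2 in black, too small to see in most bars). Krt77 is a visible block, 12.6% to 19.5% of the sum, in the 4 control samples and at most 1.65% in the 8 IMQ-treated samples.

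Other epidermal genes were counted in lists, given beside the share of all genes called above, and the counts without control replicate 2 or IMQ + BZLF replicate 2 were added after the values were seen. The 4 hyperproliferation keratins were all DEGs upwards in IMQ + NS against control skin (median log2 fold change 6.52). Krt6a rose from 12.5 ± 5.89 to 563 ± 207 FPKM, Krt16 from 2.62 ± 0.452 to 529.7 ± 222, Krt6b from 1.91 ± 0.580 to 407 ± 156 and Krt17 from 309.5 ± 188 to 1569 ± 306. Of these, Krt6a, Krt16 and Krt6b were lower in IMQ + BZLF than in IMQ + NS skin (log2 fold changes -2.39, -4.95 and -4.42), whereas Krt17 gave -0.44 with a limma adjusted p of 0.108. Without control replicate 2 all 4 stayed DEGs upwards with IMQ + NS, at a median of 6.71. The summed level of the 4 in IMQ + NS skin stayed below that of Krt5 and Krt14, the basal pair, in the group means. Among 9 other soft keratins that could be tested, 3 were DEGs upwards with IMQ + NS (median 0.70). Between IMQ + BZLF and IMQ + NS skin 0 of the 9 was a DEG in limma (median -0.026), where unadjusted p below 0.05 gave 2 higher and 1 lower. The 3 DEGs with IMQ + NS were Krt18, Krt7 and Krt8, keratins of simple epithelia, with log2 fold changes of 3.55, 1.89 and 1.61. Krt18, the most abundant of these 3, was low in both groups, at 0.409 ± 0.297 FPKM in control and 5.17 ± 0.463 FPKM in IMQ + NS skin. Krt7 and Krt8 were named after their values were seen. Krt79, Krt80 and Krt23, the most abundant of the list, gave 0.41, 0.93 and 0.70 and were not DEGs. Of these, Krt80 (limma adjusted p = 0.00134) and Krt23 (adjusted p = 0.0336) passed the adjusted p as higher.

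Genes that anchor basal keratinocytes, the cells of Krt5 and Krt14, to the basement membrane mostly stayed within 2-fold. Of 10 such genes, 3 were DEGs upwards in IMQ + NS against control skin and 0 in either direction with BZLF in limma (medians 0.37 and -0.33). With BZLF 3 of the 10 passed the adjusted p as lower, against 5.17% of all genes, and unadjusted p below 0.05 gave 5 lower. Those 3 were Itga6 (-0.56 on the log2 scale, limma adjusted p = 0.0154), Itgb4 (-0.44, adjusted p = 0.0296) and Lamb3 (-0.77, adjusted p = 0.0251), of which Itgb4, the other subunit of the hemidesmosomal integrin, and Lamb3, a laminin chain, were named after their values were seen. Without IMQ + BZLF replicate 2 there were 2. The integrin subunits Itgb1 and Itga6, the hemidesmosomal collagen Col17a1 and the linker Plec, its most abundant members, gave log2 differences of -0.061, 0.69, 0.10 and -0.053 between IMQ + NS and control skin, none over 2-fold. Of 23 differentiation genes, 16 were DEGs upwards and 2 downwards with IMQ + NS (median 1.61). With BZLF 1 was a DEG upwards and 1 downwards (median -0.15), and neither was a DEG without IMQ + BZLF replicate 2. By adjusted p alone 1 was higher with BZLF (1.28% of all genes) and 3 were lower (5.17%). Leaving out IMQ + BZLF replicate 2 made these 0 and 2. Unadjusted p below 0.05 gave 1 higher (7.96% of all genes) and 9 lower (14.8%). Asprv1, a protease of the granular layer, rose from 243 ± 84.8 to 659 ± 98.1 FPKM and Calm4, a calcium-binding protein of differentiating keratinocytes, from 340.2 ± 119 to 778 ± 185 FPKM (log2 0.97 and no DEG without control replicate 2), while Lor, the main cornified envelope protein, fell from 654 ± 277 to 307 ± 98.5 FPKM (log2 -1.03, limma adjusted p = 0.0422). The other gene of the list that fell was Flg2, a filaggrin relative, named after its values were seen. It gave -3.35 on the log2 scale with IMQ + NS and 1.98 with BZLF (limma adjusted p = 0.0134), and it was the only listed differentiation gene called lower with IMQ + NS and higher with BZLF, as Krt77 was among the 7 keratins. Rptn, repetin, was the 1 DEG downwards of the list with BZLF (log2 -2.41, limma adjusted p = 0.0221). Dsg1b (-0.92, limma adjusted p = 0.0043) and Pkp1 (-0.35, adjusted p = 0.0135), named after their values were seen, also passed the adjusted p as lower. Krtdap, a small secreted protein of differentiating keratinocytes, measured 1145 ± 397, 1087 ± 304 and 538 ± 255 FPKM in control skin, lesions with saline and lesions with BZLF. Between the 2 kinds of lesion it did not pass the test (log2 -1.08, limma adjusted p = 0.0730). BZLF-treated against control skin gave -1.11 (limma adjusted p = 0.0317), with an adjusted p of 0.0620 when IMQ + BZLF replicate 2 was left out.

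The 21 listed regulators of keratin genes or keratinocyte differentiation were transcription factors with the receptors Notch1 and Notch3. In IMQ + NS against control skin 11 of the 21 were DEGs upwards and 1 downwards (median 1.14). With BZLF 0 were DEGs in either direction in limma (median -0.16). There 2 passed the adjusted p as lower, and unadjusted p below 0.05 gave 8 lower. The DEG downwards with IMQ + NS was Fos, a subunit of AP-1 induced by many stimuli. Fos fell from 203 ± 116 to 9.99 ± 3.07 FPKM, and it measured 5.34 ± 1.88 FPKM with BZLF. Cebpb and Cebpa, C/EBP factors of the suprabasal layers, gave log2 differences of 0.45 and -0.31 with IMQ + NS, both passing the adjusted p but below 2-fold. Junb, a further AP-1 subunit, gave 0.037 (limma adjusted p = 0.920). These 4 are the most abundant of the list, and none was among the 11 DEGs upwards. Those 11 included Ovol1 (2.85), Prdm1 (2.15), Grhl3 (1.42) and Trp63 (1.14), named after their values were seen. With BZLF the 2 genes lower by limma adjusted p were Grhl3 (-0.46, adjusted p = 0.0373) and Trp63 (-0.25, adjusted p = 0.0416). Without IMQ + BZLF replicate 2 there were 0. Of 12 proliferation genes, 11 were DEGs upwards with IMQ + NS and 0 with BZLF against IMQ + NS in limma, where 1 passed the adjusted p as lower and unadjusted p below 0.05 gave 5 lower (medians 1.98 and -0.21). The summed FPKM was 44.7, 262, 26.5 and 28.1 in control replicates 1 to 4, 195 to 239 in IMQ + NS and 167 to 202 in IMQ + BZLF samples, so that control replicate 2 lay above every treated sample. Without it all 12 were DEGs upwards with IMQ + NS (median 2.68). Cdc20, Top2a, Birc5 and Ccnb1, genes of mitosis and the most abundant of the list, gave log2 fold changes of 2.04, 1.87, 1.70 and 2.20 with all samples and 2.73, 2.63, 2.40 and 2.99 without control replicate 2.

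**Figure D5:**
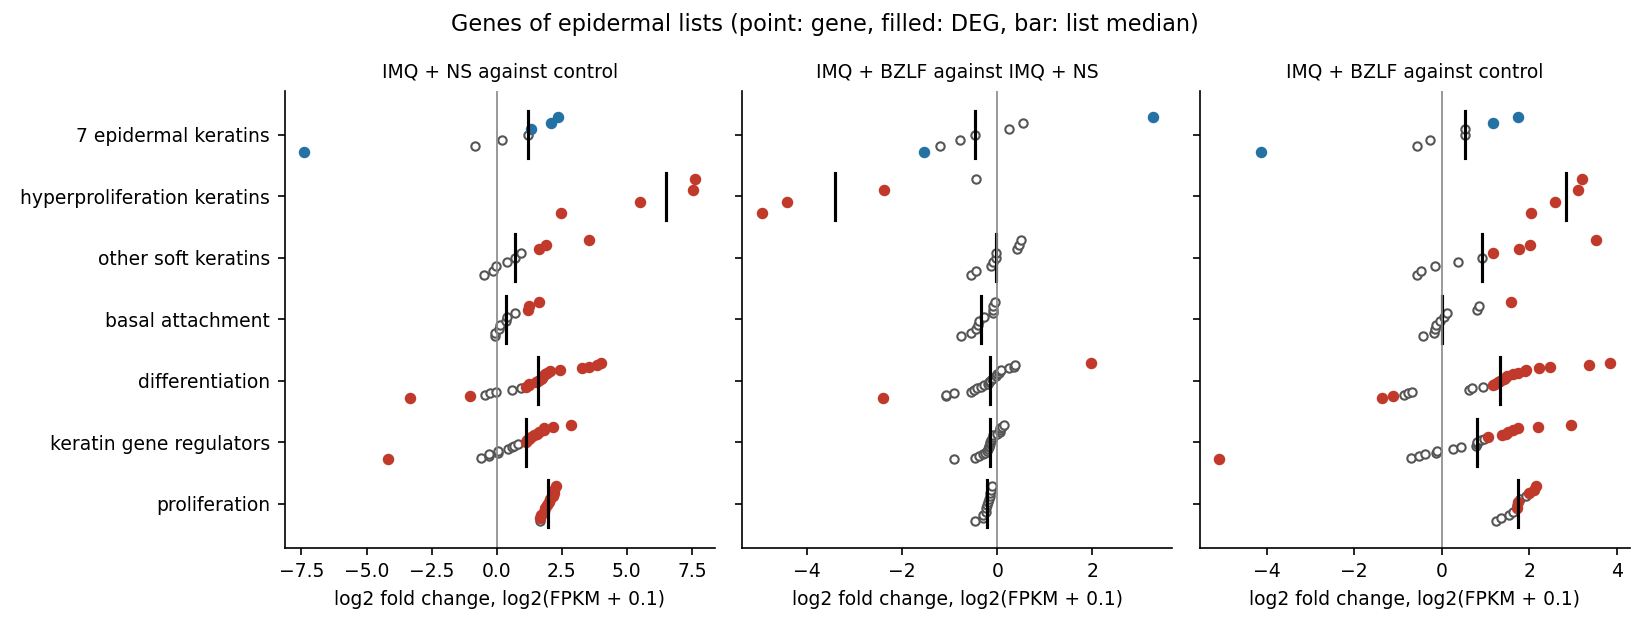
Log2 fold change on the log2(FPKM + 0.1) scale of each tested gene of the epidermal lists in the 3 comparisons; filled points are DEGs (blue for the 7 keratins, red for other lists), open points are not, and bars are list medians. The 3 panels have different horizontal scales, and Krt77 is the leftmost keratin point in the first panel (-7.40) and the rightmost in the second (3.27).

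Markers of other cells in the skin moved with the same groups, and their part in the keratin values was not tested. The 16 hair shaft genes, all above 0 in every sample, summed to 24.1 to 390.2 FPKM in controls, 11369.8 to 16565 FPKM after IMQ + NS and 15375 to 23035 FPKM after IMQ + BZLF, and all 16 were DEGs upwards in both comparisons with control, with or without control replicate 2. Fibroblast genes, all 8 above 0 in every sample, summed to 13541 to 19364 FPKM in controls, 3833 to 5089 FPKM after IMQ + NS and 4479.8 to 8400.4 FPKM after IMQ + BZLF (7 of 8 lower than control in both groups). The 12 skeletal muscle genes gave, in the same order, 5032 to 12517, 898 to 2148 and 1573 to 2158 FPKM (12 of 12 lower in both). The 8 adipocyte genes gave 3986 to 8958, 1937 to 3053 and 2628 to 3127 FPKM (6 and 5 of 8 lower). Between IMQ + BZLF and IMQ + NS skin 0 genes of these 4 lists were DEGs in limma, and unadjusted p below 0.05 gave 0 hair shaft, 4 fibroblast, 5 muscle and 4 adipocyte genes, all higher with BZLF, where 7.96% of all genes were. Of these, the fibroblast gene Dpt, named after its values were seen, also passed the adjusted p (log2 0.75, limma adjusted p = 0.0296). Neutrophil genes, 9 of 10 above 0 in every sample, summed to 38.8 to 58.9 FPKM in controls. Their sums were 3143 to 9913 FPKM after IMQ + NS and 69.3 to 92.3 FPKM after IMQ + BZLF. Of the 10, 9 were called higher with IMQ + NS and 9 lower with BZLF. S100a8 and S100a9 made up most of the sum after IMQ + NS, at means of 3010 and 2909 of 5975 FPKM. Csf3r averaged 2.88, 14.8 and 2.54 FPKM in control, IMQ + NS and IMQ + BZLF skin. Which cells made S100a8 and S100a9 was not tested. The genes listed for the follicle bulge, where Krt15 is also made, summed to 326 to 405, 301 to 328 and 366 to 428 FPKM. They moved in opposite directions, with 3 of 8 higher and 4 of 8 lower by adjusted p in IMQ + NS against control skin. Cd34 fell from 309 ± 66.8 to 56.8 ± 8.58 FPKM. Krt75, a follicle keratin rather than a bulge marker, rose from 17.0 ± 25.5 to 217 ± 14.5 FPKM. Sox9 rose from 5.40 ± 2.18 to 16.5 ± 1.68 FPKM. The mean sum of this list was mostly Cd34 in control skin (358 FPKM) and mostly Krt75 after IMQ + NS (319 FPKM). It therefore cannot be read as a level of bulge cells. Of the 8 sebaceous gland markers, 3 were higher and 4 lower by adjusted p in IMQ + NS against control skin. Most of their sum was Scd1, at a mean of 694 of 884 FPKM in control and 362 of 546 FPKM in IMQ + NS skin. The sums were 732 to 1134, 393 to 634 and 553 to 797 FPKM in control, IMQ + NS and IMQ + BZLF samples. The remaining lists gave, in the same order, 901 to 1283, 631 to 891 and 416 to 619.7 FPKM for macrophages, 11.9 to 18.3, 10.2 to 21.0 and 5.26 to 11.9 FPKM for T cells, 79.9 to 109.6, 65.4 to 78.8 and 50.8 to 77.4 FPKM for endothelium, and 45.1 to 257, 203 to 389 and 273 to 569.9 FPKM for melanocytes, where control replicate 2 held the highest control value and the other 3 controls reached 67.1 FPKM. In the IMQ + NS samples Krt77 and Krt15 were below control while Krt5, Krt14 and Krt1 were above it.

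The genes with the profile most like each keratin were sought among 12657 genes whose mean reached 1 FPKM, by the root mean square difference of mean-centred log2(FPKM + 0.1) over the 12 samples, given in parentheses in log2 units. Closest to Krt5 were Mal2 (0.144), Crabp2 (0.147) and B4galnt1 (0.165). Krt14 was closest to Cd300c2 (0.201), Glrx (0.201) and Itgal (0.257), and Krt15 to Nampt (0.0887), Cry2 (0.103) and Podxl2 (0.107). For Krt1 the nearest were Il1f5 (0.245), Csta1 (0.286) and Serpinb12 (0.366), and for Krt10 Ly6m (0.225), Chit1 (0.276) and Il7r (0.291). Krt2 had Slc38a3 (0.442), Il1f10 (0.464) and Tmprss11f (0.488) as its nearest genes. Krt77 stood farthest from its nearest genes of the 7 keratins, with Mrgprb3 (1.08), Gal (1.10) and Serpinb6e (1.13). The measure is not scaled to the size of a gene's changes, and Krt77 changed the most of the 7. Its larger distances therefore do not show that the shape of its profile was unusual.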

How the data were processed

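The authors deposited 1 table of FPKM for 18505 genes in 12 samples, not log-transformed and not pooled, with 1 column per sample and 0 columns that matched no sample. The study's methods describe alignment with Bowtie2 to transcripts and quantification with eXpress, and the submitters' processing notes name fastp, HISAT2, HTSeq, R 3.2.0 and mm10, so which route made the table is not stated. FPKM depends on all other transcripts of a sample, and counts were not used here.

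Groups came from the sample labels. The 7 keratins and the gene lists were chosen with earlier results of these data known. Each pair of groups was compared with limma 3.58.1 in R 4.3.3 on log2(FPKM + 0.1), with variance moderation and Benjamini-Hochberg adjustment over the 15288 genes whose mean reached 0.1 FPKM, so that a fold change understates that of weak genes. DEGs were genes below 0.05 in adjusted p that differed by more than 1 log2 unit. The study's own screen used unadjusted p, which was an alternative here. The limma script was tested on simulated data. Single genes also had an exact two-sided permutation test. In the lists of epidermal genes, named genes came from the 4 with the highest mean FPKM, and others where stated, while markers of other cells are given mainly by sums. Counts of the lists without the 2 samples that stood apart were added after the data were seen. Positions and transcripts came from GENCODE M21 and promoter windows from RefSeq. Replicate numbers were not used to pair the samples in the reported fits. Deviations from group means of same-numbered samples correlated at -0.152 to 0.260, over 0.1 in 2 of 4 pairs of each comparison. These were the pairs of replicate 3 and of replicate 4 each time. Whether same-numbered samples were handled together is not stated in the labels and was not tested.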

Additional observations from a re-analysis of the deposited data

Results flagged for a closer look

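Among the 21 sets of 4 samples (7 keratins in 3 groups) that were searched for a sample far from the others, 1 was found, where chance alone would mark about 5% of sets. Krt5 in IMQ + NS replicate 3 was 2186 FPKM, against 1410.5 to 1514 FPKM in the other 3 replicates of the group, a gap of 0.866 of the whole range of the group, above the critical value of Dixon's test. In the same sample Krt14 (2958 FPKM) and the summed hyperproliferation keratins (4207 FPKM) were also the highest of the group, whereas Krt15 (188 FPKM) was the lowest and Krt10 was second lowest. Leaving out each sample in turn, Krt5 stayed a DEG between IMQ + NS and control skin, with log2 fold changes from 1.18 to 1.39.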

How the results depend on the processing

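Over 22 ways of running each comparison, the reported one included, Krt5, Krt14, Krt1 and Krt77 stayed DEGs between IMQ + NS and control skin (log2 1.0 to 1.39, 1.85 to 2.20, 2.08 to 2.56 and -7.76 to -7.03), as did Krt14 (-1.66 to -1.37) and Krt77 (2.94 to 3.63) between IMQ + BZLF and IMQ + NS skin and Krt77 (-4.42 to -3.95) between IMQ + BZLF and control skin. Keratins called lower in IMQ + NS against control skin became 2 with quantile normalization (Krt15 at -1.12) and 2 without the fold limit. The sign of Krt10 in that comparison turned with quantile normalization (-0.046), without IMQ + NS replicate 2 (-0.020) and without control replicate 2 (-0.060), with a range of -0.060 to 0.49 when single samples were left out, and Krt2 was called with all 12 samples in 1 fit (adjusted p = 0.0480). Those called lower in IMQ + BZLF against IMQ + NS skin became 2 without the fold limit, 2 with unadjusted p and 2 with the replicate number as a block (Krt1 at -1.20, adjusted p = 0.0459), and were 1 to 2 when single samples were left out. The block changed no other call of a keratin. Keratins called higher in IMQ + BZLF against control skin became 1 with no filter on low values, where Krt1 no longer passed (limma adjusted p = 0.0528). They became 4 without the fold limit, and were 0 to 2 when single samples were left out. Those called lower became 2 without the fold limit. The causes of these changes were not tested, apart from the fold limit and the p used. Rescaling to equal sums moved the median of all genes in IMQ + NS against control skin from 0.053 to -0.073, with 3161 genes higher and 4999 lower by adjusted p alone, against 4427 and 4142. In IMQ + BZLF against control skin it gave 2771 higher and 5179 lower, against 3640 and 4458, and median ratio scaling in IMQ + BZLF against IMQ + NS skin gave 295 higher and 579 lower, against 195 and 791. Adding 1 in place of 0.1 to FPKM lowered the DEGs from 1678 to 1023 (lower in IMQ + NS against control), from 49 to 17 and 336 to 188 (higher and lower in IMQ + BZLF against IMQ + NS) and from 1475 to 979 and 1542 to 865 (higher and lower in IMQ + BZLF against control). Depth was not given, so the precision of the low Krt2 values is unknown.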
